A study of Mus musculus with 54 samples.

Results

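Lysosomal genes were followed in primary microglia, the brain's own phagocytes, that had been fed alpha-synuclein (aSyn), the protein that accumulates in Parkinson's disease, or that met fed cells in co-culture. The set holds 51 genes for lysosomal hydrolases, lysosomal membrane proteins, subunits of the vacuolar proton pump (V-ATPase) and the factors that drive their transcription. Members were picked by gene symbol as lysosome genes other than the cathepsins. The rule sets no threshold on a measured value, but the set was drawn up with earlier results of these data known. Of the 16632 genes listed, 51 are members, and all 51 passed the filter on low counts, which left 13169 genes for testing.

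The lysosome is the acidic compartment in which material taken up by phagocytosis and autophagy is broken down, and microglia carry large numbers of lysosomes because they clear protein aggregates and debris. The V-ATPase pumps protons into it through a membrane ring, the V0 sector, driven by ATP hydrolysis in a cytosolic V1 sector. Hydrolases for glycans, glycosaminoglycans, sphingolipids, neutral lipids and proteins work at that acidic pH. Many of these genes are targets of the MiT/TFE transcription factors Tfeb, Tfe3 and Mitf, which bind a short motif in promoters known as the CLEAR element. Loss of single hydrolases causes lysosomal storage disease.

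Cells came from neonatal C57BL/6 mice, were cultured on astrocytes in medium with supernatant of L929 cells and were shaken off the astrocyte layer before use. Donor cells received 1 µM of aSyn carrying the dye Atto-488 for 14 h, whereas acceptor cells received no aSyn and were stained with CellTracer Violet. Donors and acceptors were mixed for 15, 30, 60, 150 or 300 min and recovered by flow cytometry, and groups labelled 0 min exist for both, without a stated handling. Untreated cells and cells given aSyn without a stated co-culture (called aSyn-treated here), complete the 14 groups, which hold 54 libraries.

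The replicate number in the labels was read as the number of the experiment, from 1 to 4. The passage in the labels was 3 for number 1, 1 for number 2 and 2 for numbers 3 and 4. Any difference between passages is thus also one between experiments, whereas experiments 3 and 4 share the same labelled passage. Untreated cells gave 6 libraries, and their same-numbered libraries were summed, so that 52 units from 4 experiments were compared. Groups held 4 units each except for donors at 0 and 60 min and acceptors at 0 and 300 min, which held 3. The 0 min groups lacked experiment 4, donors at 60 min lacked experiment 2 and acceptors at 300 min lacked experiment 3. Brains were pooled for culture and the labels do not tie the replicates to separate animals, so p-values measure the spread between these units, which may be partly technical.

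Library totals ran from 7807389 to 15537493 counts, with a median of 13036175.5. Members together took 1.96% to 3.56% of the counts, and the lowest count of any member in any unit was 25. All 9 microglial markers were detected in every unit. Library names of experiment 4 carry a separate range of numbers, whose meaning the labels do not give. Experiment 4 stood apart: the ribosomal transcript Rn45s took a mean of 18.2% of its counts against 6.60% in the others. Its summed microglial markers reached 1968 to 4303 CPM (counts scaled to the library total) against 4796 to 8662 in experiments 1 to 3. Summed astrocyte markers were 11.7 to 156 CPM in untreated units and 11.2 to 38.0 CPM in aSyn-treated units. Oligodendrocyte-lineage markers were 119.8 to 589 CPM and 85.5 to 254.9 CPM. Low values were not limited to cells given aSyn. Acceptors held 8.02 to 49.6 CPM of astrocyte markers and 78.4 to 270.1 CPM of oligodendrocyte-lineage markers. Of all units, only the untreated units of experiments 3 and 4 lay above that astrocyte range. Untreated units are the shared reference of the contrasts with untreated cells below. With edgeR and the experiment as a block, 5 of the 9 astrocyte markers, 3 of the 8 oligodendrocyte-lineage markers and 1 of the 6 neuronal markers tested were lower in aSyn-treated cells, and among the microglial markers Cx3cr1 was lower and Tmem119 higher. In bulk RNA, fewer cells of a type and less RNA per cell cannot be told apart, and the part of other cell types in the values below was not tested.

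Exposure to aSyn without co-culture was the simplest contrast, with 4 units against 4. In edgeR's quasi-likelihood F test without an experiment term, none of the 51 members was called at an adjusted p under 0.05, where 2.5% of all genes were called, and 5 members had an unadjusted p under 0.05. The median log2 fold change was -0.03 over members and -0.04 over all genes tested. Because units with the same number deviate together, the same contrast was fitted with the experiment as a block, which called 14 of 51 members, 8 higher and 6 lower, where 19.2% of all genes were called. The members' median log2 fold change was then -0.05, equal to that of all genes. The calls went in both directions and fell in 9 of the 11 roles. In what follows, rose and fell refer to calls of the fit with the experiment as a block unless the other fit is named.

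**Figure D1:**
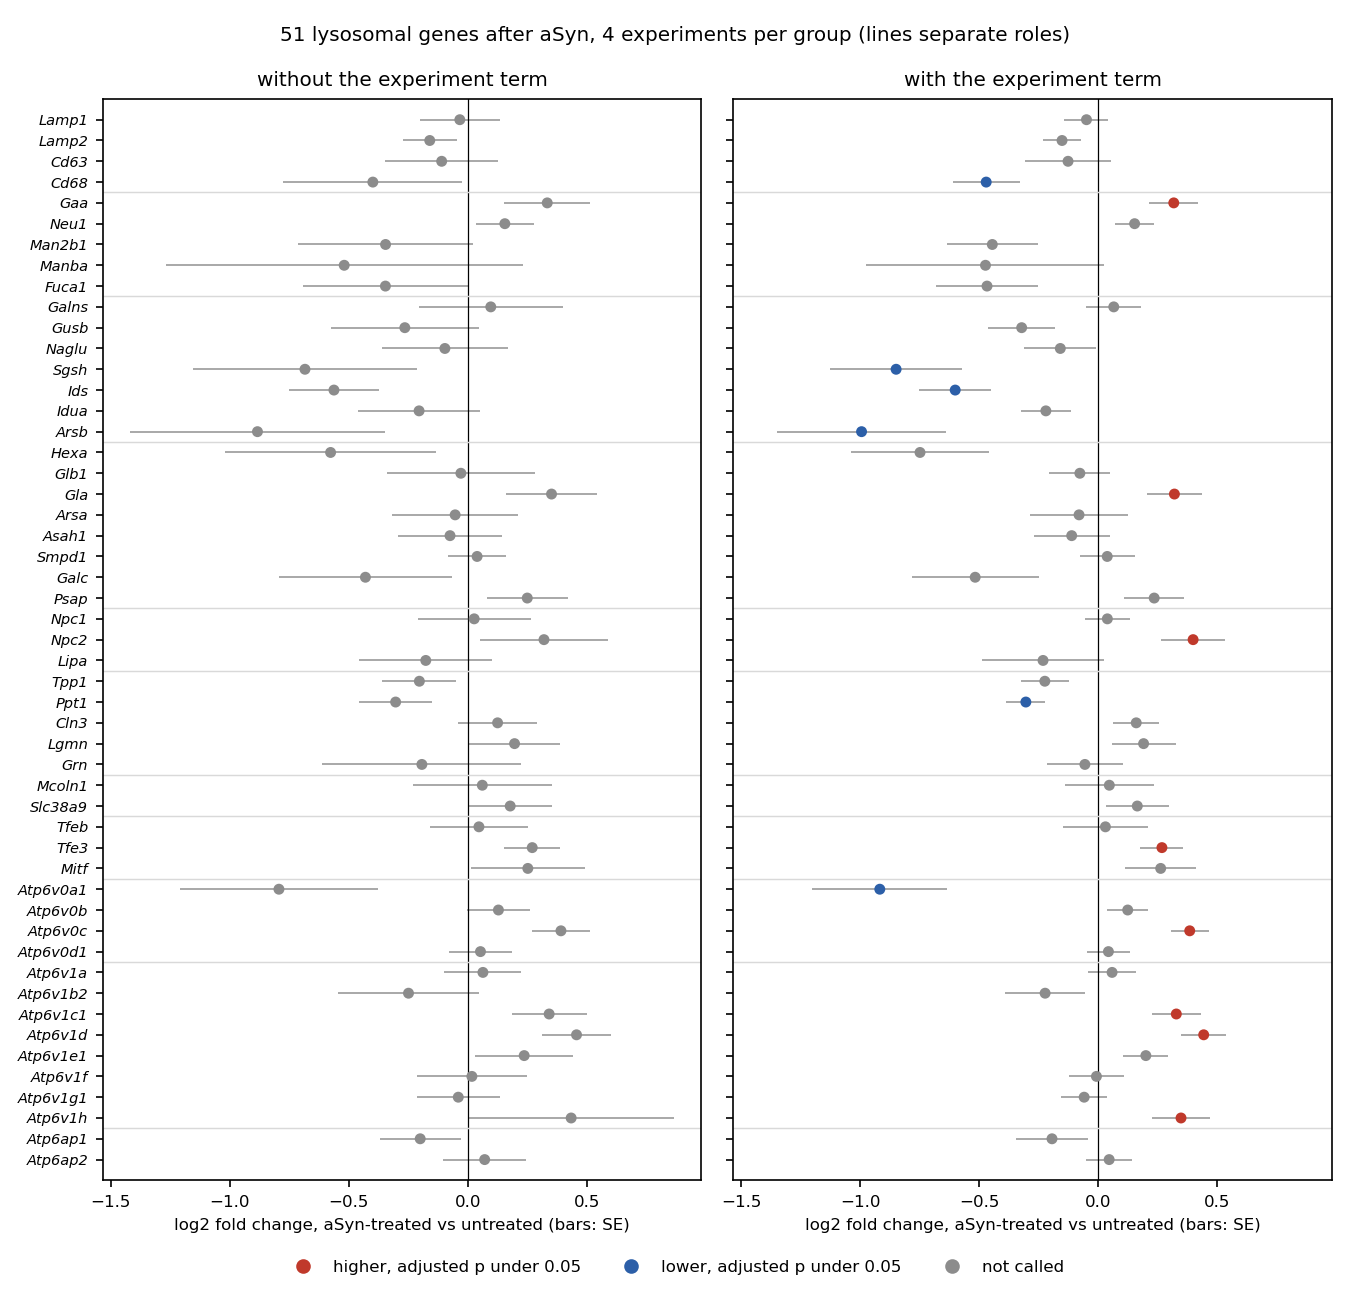
Log2 fold change of each of the 51 lysosomal genes in aSyn-treated against untreated microglia (x axis; points are edgeR estimates, bars are standard errors, 4 units per group), with genes on the y axis ordered by role. No gene is called in the left panel, fitted without the experiment, and 14 are called in the right panel, fitted with it, where the bars of genes such as Cd68, Sgsh and Atp6v1h are shorter.

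Among the 12 V-ATPase subunits, 4 rose and 1 fell, where 19.2% of all genes were called in either direction. Atp6v1d, a subunit of the central stalk of the V1 sector, stood at 189, 232.3, 158 and 198 CPM in the untreated units of experiments 1 to 4 and at 247.4, 240.999, 265.1 and 314 CPM in the aSyn-treated units. Every aSyn-treated unit was above every untreated unit, and the log2 fold change with the experiment as a block was 0.44 (SE 0.09, adjusted p = 7.80e-04, against 0.0860 without the block). Atp6v0c, the proteolipid that forms the proton-carrying ring of V0, stood at 1185, 1431, 1159.8 and 1093 CPM in untreated units and at 1497, 1559, 1767 and 1563 CPM in aSyn-treated units. Its groups did not overlap either, with a log2 fold change of 0.38 (SE 0.08, adjusted p = 6.70e-04, against 0.0754 without the block). Atp6v0c has annotated pseudogenes, Atp6v0c-ps1 and Atp6v0c-ps2, whose reads could have been shared with it. By GENCODE on GRCm38, Atp6v1d lies at chr12:78840725-78861638 and Atp6v0c at chr17:24163866-24169702, both on the minus strand. Atp6v0c and Atp6v1d were the only members still called in all 4 blocked fits that left out 1 experiment.

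Further V1 subunits moved in the same direction with less support. Atp6v1c1, a subunit that links the stator to V0, rose by 0.33 on the log2 scale (SE 0.10, adjusted p = 0.0230), from 152, 151, 154 and 166 CPM to 164, 188, 233.3 and 204 CPM, and was higher in 4 of 4 experiments, with the call kept in 2 of the 4 fits that left out an experiment. Atp6v1h, a regulatory subunit of V1, rose by 0.35 (SE 0.12, adjusted p = 0.0371), from 55.4, 56.2, 77.05 and 94.1 CPM to 48.5, 73.1, 105 and 156 CPM. It was lower in experiment 1 and higher in the other 3, and its call was lost in 3 of the 4 fits that left out an experiment. Its gene overlaps Rgs20 on the opposite strand, and whether counting used strand is not given in the sources used here. The other 5 V1 subunits (Atp6v1a, Atp6v1b2, Atp6v1e1, Atp6v1f and Atp6v1g1), the V0 subunits Atp6v0b and Atp6v0d1 and the accessory proteins Atp6ap1 and Atp6ap2 were not called. Of the blocked fits, only that without experiment 1 called Atp6v1e1.

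The V0 subunit Atp6v0a1, an isoform of the membrane arm that is prominent in neurons, went the other way. It stood at 302, 195, 245.6 and 276 CPM in untreated units and at 235.6, 144, 129.7 and 77.8 CPM in aSyn-treated units, lower in 4 of 4 experiments. The log2 fold change was -0.92 (SE 0.28, adjusted p = 0.0193), and the fall was largest in experiment 4. Without experiment 4 it was -0.57 and no longer called (adjusted p = 0.0850).

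Glycosaminoglycan-degrading enzymes, which take apart heparan, dermatan and keratan sulfate, gave 3 falls among 7 genes and no rise. Of all genes, 19.2% were called in either direction in this fit. Arsb, which removes sulfate from dermatan sulfate, stood at 49.9, 24.5, 33.7 and 38.3 CPM in untreated units and at 36.0, 14.8, 20.4 and 7.94 CPM in aSyn-treated units, a log2 fold change of -0.99 (SE 0.35, adjusted p = 0.0430). Sgsh, a heparan sulfatase, fell from 26.0, 25.9, 23.4 and 22.9 CPM to 18.2, 13.6, 20.6 and 8.73 CPM, a log2 fold change of -0.85 (SE 0.28, adjusted p = 0.0269). Both were lower in every experiment, and for Sgsh the groups did not overlap. Each was called in 1 of the 4 fits that left out an experiment, and without experiment 4 the log2 fold changes were -0.63 for Arsb and -0.54 for Sgsh (adjusted p = 0.0116 and 0.184). Acceptors, which were given no aSyn, also had less Sgsh than untreated cells at all 6 times. Their blocked log2 fold changes ran from -1.09 to -0.42, none of them called (lowest adjusted p = 0.0630). Between donors and acceptors Sgsh was not called at any time, with log2 differences from -0.11 to 0.40, positive at 4 of 6 times. Ids, the iduronate sulfatase mutated in Hunter syndrome, fell from 60.2, 74.8, 56.1 and 69.1 CPM to 58.7, 44.1, 47.6 and 26.0 CPM. Its log2 fold change was -0.60 (SE 0.15, adjusted p = 0.00407), and without experiment 4 it was -0.33 (adjusted p = 0.0877). Galns, Gusb, Naglu and Idua were not called, with blocked log2 fold changes of 0.06, -0.32, -0.16 and -0.22.

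Glycan and sphingolipid hydrolases were mixed. Gaa, which breaks down glycogen, rose by 0.32 on the log2 scale (SE 0.10, adjusted p = 0.0254), from 53.0, 64.8, 63.8 and 51.2 CPM to 73.3, 81.1, 84.2 and 54.6 CPM, and was higher in all 4 experiments. Gla, which removes galactose from globotriaosylceramide, rose by 0.32 (SE 0.12, adjusted p = 0.0487). Its rise came from experiments 3 and 4, where it went from 77.3 to 123 CPM and from 86.6 to 132 CPM, whereas in experiments 1 and 2 it was 71.05 against 72.0 CPM and 95.1 against 94.9 CPM. Without experiment 3 the log2 fold change of Gla was 0.20 and no longer called (adjusted p = 0.320), and the call of Gaa was lost in 3 of the 4 fits that left out an experiment. Hexa, the alpha chain of hexosaminidase, was lower in 4 of 4 experiments and was not called at a log2 fold change of -0.75 (SE 0.29, adjusted p = 0.0637). Of the blocked fits that left out an experiment, that without experiment 4 called Hexa, where 12.4% of all genes were called. Its values were 859, 802, 627 and 614 CPM in untreated units and 719, 558, 500.3 and 169 CPM in aSyn-treated units, and it overlaps Tmem202 on the opposite strand. The remaining 4 glycan hydrolases and 6 sphingolipid genes, among them Neu1, Glb1, Asah1, Smpd1 and Psap, were not called. With an experiment left out, Neu1 was called without experiment 2 and Psap without experiment 4.

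Among membrane proteins, Cd68, a heavily glycosylated protein of macrophage lysosomes, fell by 0.47 on the log2 scale (SE 0.14, adjusted p = 0.0159), from 1835, 1999, 1479 and 976 CPM to 1462, 1383, 1407 and 517 CPM. The fall was present in every experiment, and the call held in 3 of the 4 fits that left out an experiment, with a log2 fold change of -0.31 without experiment 4. Lamp1, Lamp2 and Cd63, abundant components of the lysosomal membrane, were not called, with blocked log2 fold changes of -0.05, -0.15 and -0.13. Npc2, the soluble cholesterol carrier, rose by 0.40 (SE 0.13, adjusted p = 0.0328), from 1498, 3667, 1709 and 1325 CPM to 2156, 3055, 2689 and 2334 CPM, with the opposite direction in experiment 2. It was called in 1 of the 4 fits that left out an experiment, with 0.70 without experiment 2 and 0.26 (adjusted p = 0.197) without experiment 4. Its partner Npc1 and the acid lipase Lipa were not called.

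Ppt1, the thioesterase that removes palmitate from proteins and is mutated in infantile neuronal ceroid lipofuscinosis, fell by 0.30 (SE 0.08, adjusted p = 0.00693). It went from 354, 317, 407 and 433 CPM to 269.4, 266.7, 326 and 363 CPM, a similar difference in each experiment, although the ranges of the groups overlapped. Ppt1 overlaps Cap1 on the opposite strand. The proteases Tpp1 and Lgmn, the membrane protein Cln3 and progranulin (Grn), the calcium channel Mcoln1 and the amino acid sensor Slc38a9 were not called.

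Of the 3 transcription factors, 1 was called, where 19.2% of all genes were called. Tfe3 rose by 0.27 on the log2 scale (SE 0.09, adjusted p = 0.0321), from 85.3, 115, 84.4 and 95.8 CPM to 108, 113, 107 and 130.5 CPM, and was called in 1 of the 4 fits that left out an experiment. Tfeb stood at 20.5, 29.1, 17.6 and 26.3 CPM in untreated units and at 34.0, 27.6, 17.7 and 17.3 CPM in aSyn-treated units, with a log2 fold change of 0.03 (SE 0.18) that changed sign when experiment 1 was left out. Mitf stood at 113, 87.4, 97.8 and 156 CPM and at 163, 141, 98.6 and 139 CPM, with a log2 fold change of 0.26 (SE 0.15, adjusted p = 0.223). Of the blocked fits, only that without experiment 4 called Mitf. Activity of these factors is set mainly by their move to the nucleus, which RNA levels do not measure.

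Promoters were searched for CACGTG, the palindromic core of the CLEAR element, and for TCACGTGA, which contains it, in the window from 250 bases before to 50 bases after each gene's start (RefSeq, GRCm38.p6). Both motifs read the same on both strands. Of the 51 members, 44 had an entry, and those without were Atp6v1g1, Atp6v1b2, Atp6v1h, Atp6v1c1, Galns, Npc1 and Asah1. CACGTG was found for 13 of 44 members (29.5%) and for 8.09% of the 27025 genes in the table, and TCACGTGA for 5 members (11.4%; Gla, Cln3, Mcoln1, Atp6v0d1 and Atp6v1a) and for 1.12% of all genes. Of the 14 members called above, 12 had an entry and 3 held CACGTG: Sgsh, which fell, and Gla and Gaa, which rose. Their 250 upstream bases are shown because these are the called members with the core motif, and they differ in direction. Capitals mark CACGTG.
Sgsh: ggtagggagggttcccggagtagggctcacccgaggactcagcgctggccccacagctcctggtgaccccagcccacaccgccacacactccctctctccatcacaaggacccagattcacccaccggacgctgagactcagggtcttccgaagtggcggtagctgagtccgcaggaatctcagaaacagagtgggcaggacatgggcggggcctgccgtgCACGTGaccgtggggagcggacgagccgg
Gla: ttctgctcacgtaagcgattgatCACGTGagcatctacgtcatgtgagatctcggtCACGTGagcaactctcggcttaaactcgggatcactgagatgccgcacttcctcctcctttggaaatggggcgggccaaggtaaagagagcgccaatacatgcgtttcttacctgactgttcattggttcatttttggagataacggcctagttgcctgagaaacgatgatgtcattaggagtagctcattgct
Gaa: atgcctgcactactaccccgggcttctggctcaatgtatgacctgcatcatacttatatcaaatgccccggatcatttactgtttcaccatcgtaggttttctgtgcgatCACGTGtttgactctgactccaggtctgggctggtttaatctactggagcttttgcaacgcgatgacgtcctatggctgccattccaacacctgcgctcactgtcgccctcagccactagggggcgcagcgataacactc
The Sgsh sequence lies at chr11:119355511-119355760 on the minus strand, with the motif starting 29 bases before the gene's start. The Gla sequence lies at chrX:134601006-134601255 on the minus strand and holds the motif at 227 and 194 bases before the start. The Gaa sequence lies at chr11:119267713-119267962 on the plus strand, with the motif at 140 bases before the start. A match describes letters in this window and is no evidence of binding, and neither Atp6v0c nor Atp6v1d held the core there.

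Donor cells recovered from co-culture, and those labelled 0 min, were then compared with the same untreated units at each time. Without the experiment term, 3 calls were made over the 6 times: Ids at 30 min (log2 fold change -0.67, SE 0.19, adjusted p = 0.0318) and Atp6v0c at 30 min (0.43, SE 0.12, adjusted p = 0.0339), where 3.82% of all genes were called, and Atp6v1d at 60 min (0.55, SE 0.16, adjusted p = 0.0464), where 2.49% were. None of the 3 was made when experiment 1 or experiment 3 was left out. With the experiment as a block, 6 members were called at 0 min, 4 higher and 2 lower (16.9% of all genes), 11 at 15 min, 6 higher and 5 lower (23%), and 13 at 30 min, 6 higher and 7 lower (22.4%). At 60 min 11 were called, 5 higher and 6 lower (18.9%), at 150 min 14, 6 higher and 8 lower (18.5%), and at 300 min 8, 3 higher and 5 lower (12.4%). These 6 comparisons and that of aSyn-treated cells share the untreated units. Over the 7, 20 of 51 members were called at least once, against 36.4% of all genes, and no member was called in both directions. Shared untreated units favor calls in 1 direction, and the share of all genes called in both was not computed.

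Atp6v0c and Atp6v1d rose and Ids and Ppt1 fell at each of the 6 times. Atp6v0c reached means of 1639.6 ± 147 CPM (SD, n = 3) at 0 min and 1641 ± 135 CPM (SD, n = 4) at 30 min against 1217 ± 148 CPM (SD, n = 4) in untreated cells. Its 22 donor units all lay between 1439 and 1832 CPM, above the highest untreated unit, 1431 CPM. Atp6v1d averaged 285 ± 42.6 CPM (SD, n = 3) at 60 min and 242 ± 42.5 CPM (SD, n = 4) at 300 min against 194 ± 30.4 CPM (SD, n = 4) in untreated cells, and its donor units ran from 206 to 341 CPM, overlapping the untreated unit of experiment 2 at 232.3 CPM. Ids averaged 40.9 ± 9.15 CPM (SD, n = 4) at 30 min and 46.3 ± 6.94 CPM (SD, n = 4) at 300 min against 65.1 ± 8.45 CPM (SD, n = 4), and every donor unit lay below the lowest untreated unit, 56.1 CPM. Ppt1 averaged 280.3 ± 41.9 CPM (SD, n = 4) at 30 min against 378 ± 52.2 CPM (SD, n = 4), with overlapping ranges.

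These calls were refitted with each experiment left out in turn. At 30 min Atp6v0c, Atp6v1d, Ids and Ppt1 were each called in all 4 such fits, and at 300 min in 3, 1, 1 and 2 of them. Of all 13 members called at 30 min, 6 to 9 remained, and of the 8 called at 300 min, 1 to 4. The log2 fold change of Ids went from -0.56 to -0.33 at 15 min, from -0.59 to -0.35 at 60 min and from -0.50 to -0.28 at 150 min without experiment 4, and was not called there. Atp6v1d at 300 min went from 0.29 to 0.20 without experiment 4 and to 0.46 without experiment 2. Ppt1 at 150 min went from -0.26 to -0.16 without experiment 3. Atp6v0c stayed between 0.29 and 0.57 over all times and fits.

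**Figure D2:**
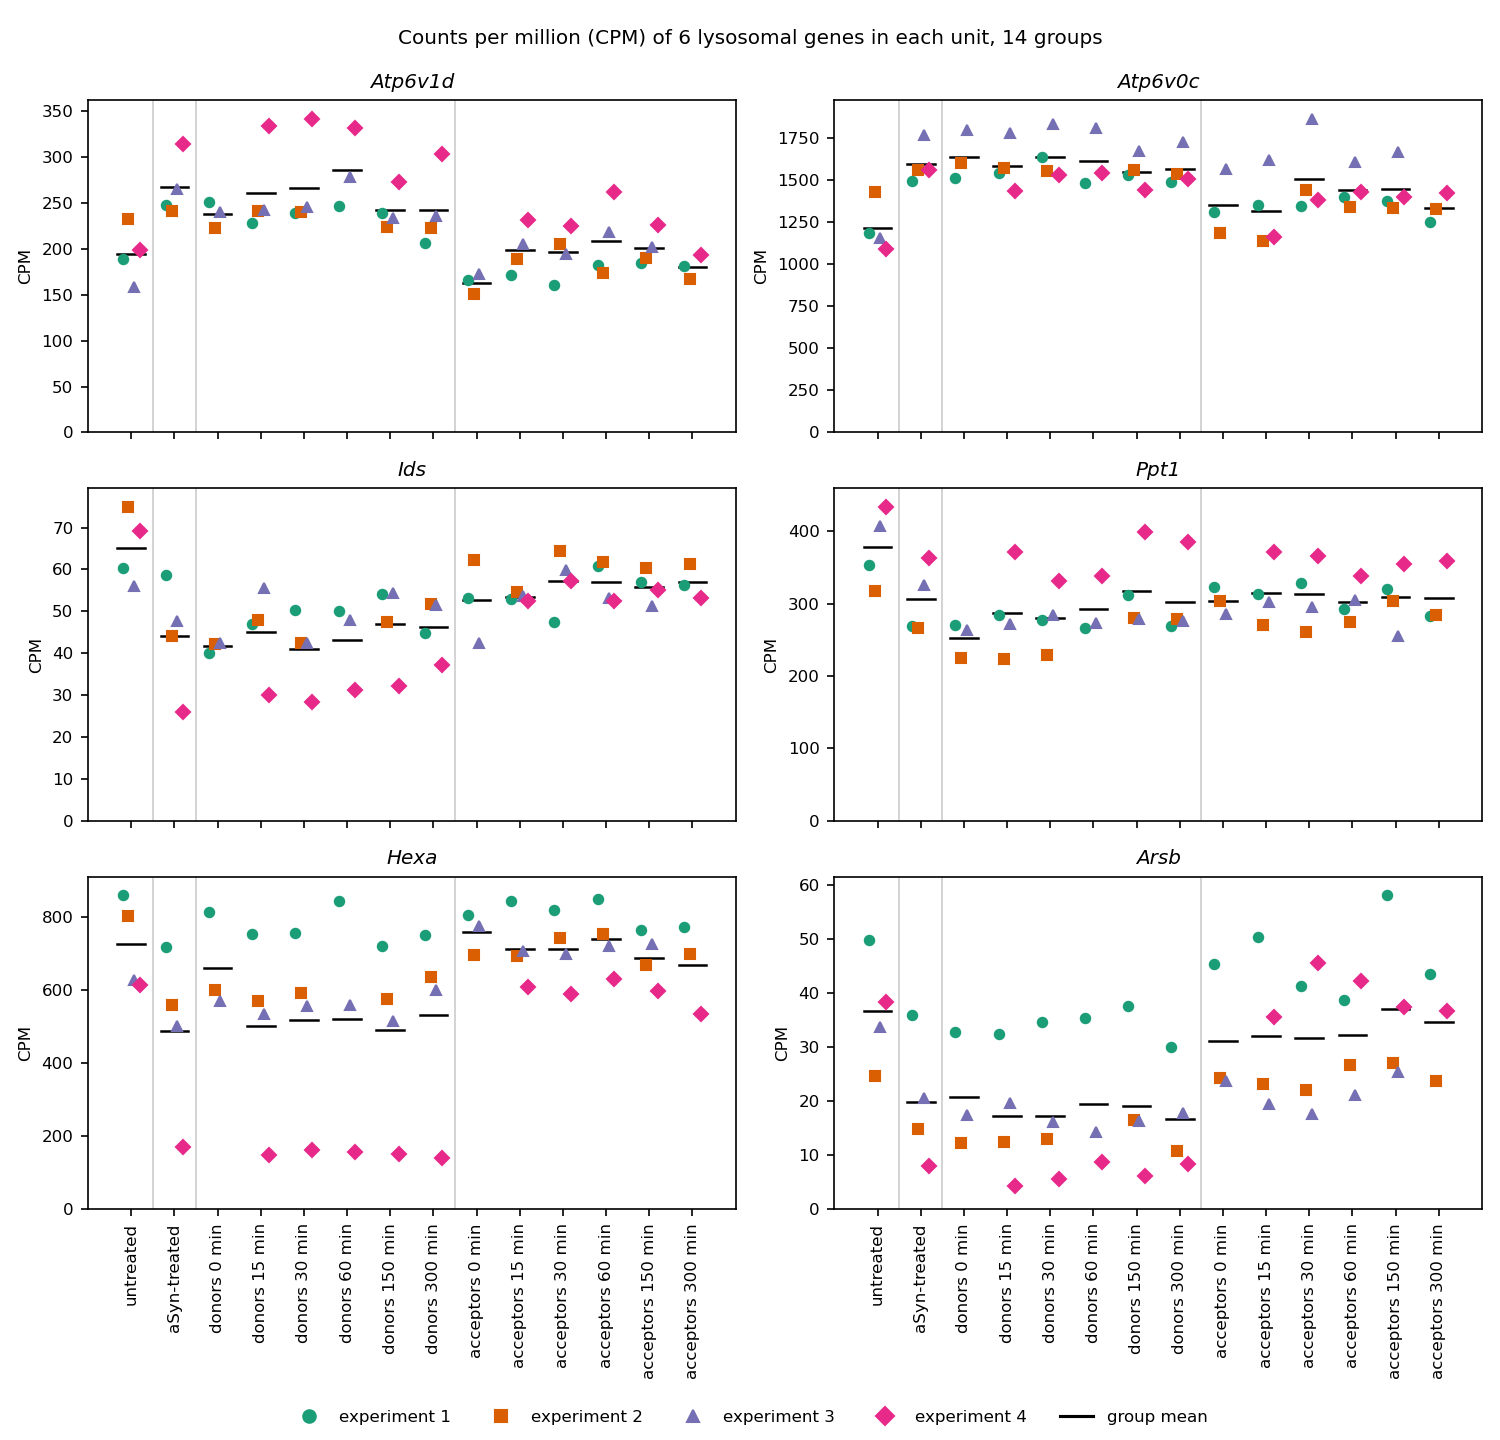
CPM (y axis) of 6 lysosomal genes in each of the 52 units, by group (x axis), with 1 symbol per experiment and a bar at the group mean. Atp6v1d and Atp6v0c are higher and Ids, Ppt1 and Arsb lower in aSyn-treated and donor cells than in untreated cells, and the Hexa points of experiment 4 sit between 140.1 and 169 CPM in those groups and between 534 and 629 CPM elsewhere.

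Other members were called at some times. Arsb and Atp6v0a1 fell at 15, 30, 60, 150 and 300 min, with log2 fold changes down to -1.25 for Arsb and -1.13 for Atp6v0a1, and at 0 min, where experiment 4 has no unit, both missed the threshold at adjusted p = 0.0691 and 0.0860. Npc2 rose at the same 5 times, by 0.39 to 0.47, and Atp6v1h at 15, 30, 60 and 150 min, by 0.33 to 0.45. Gusb, the beta-glucuronidase, fell at 4 times and Idua, the iduronidase, at 3, so that 5 of the 7 glycosaminoglycan-degrading enzymes (Arsb, Gusb, Ids, Idua and Sgsh) were called lower in donors at least once and none higher, where 35.2% of all genes were called at least once in either direction over the 6 times. Of the 4 fits that left out an experiment, Gusb was called in 0 or 1 at each of its times and Idua in 1, and Gusb at 150 min went from -0.42 to -0.18 without experiment 4. Gaa rose at 3 times, Psap, the precursor of the saposins that present lipids to hydrolases, at 0 and 15 min, and Atp6v1c1 at 30 and 150 min. Calls at a single time were Sgsh and Cd68 (lower, 150 min), Fuca1 (lower, 30 min), Man2b1 (lower, 300 min), Tfe3 (higher, 60 min) and Atp6v0b (higher, 0 min). Without experiment 4, Fuca1 at 30 min went from -0.63 to -0.29, Man2b1 at 300 min from -0.58 to -0.25, Sgsh at 150 min from -0.97 to -0.63, Atp6v1h at 60 min from 0.37 to 0.15 and Atp6v0a1 at 300 min from -0.85 to -0.44, none of them then called. Arsb at 150 min went from -1.08 to -0.67 without experiment 4 and was still called. Npc2 was called at each of its times in 1 of the 4 fits, that without experiment 2, with values of 0.70 to 0.75.

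**Figure D3:**
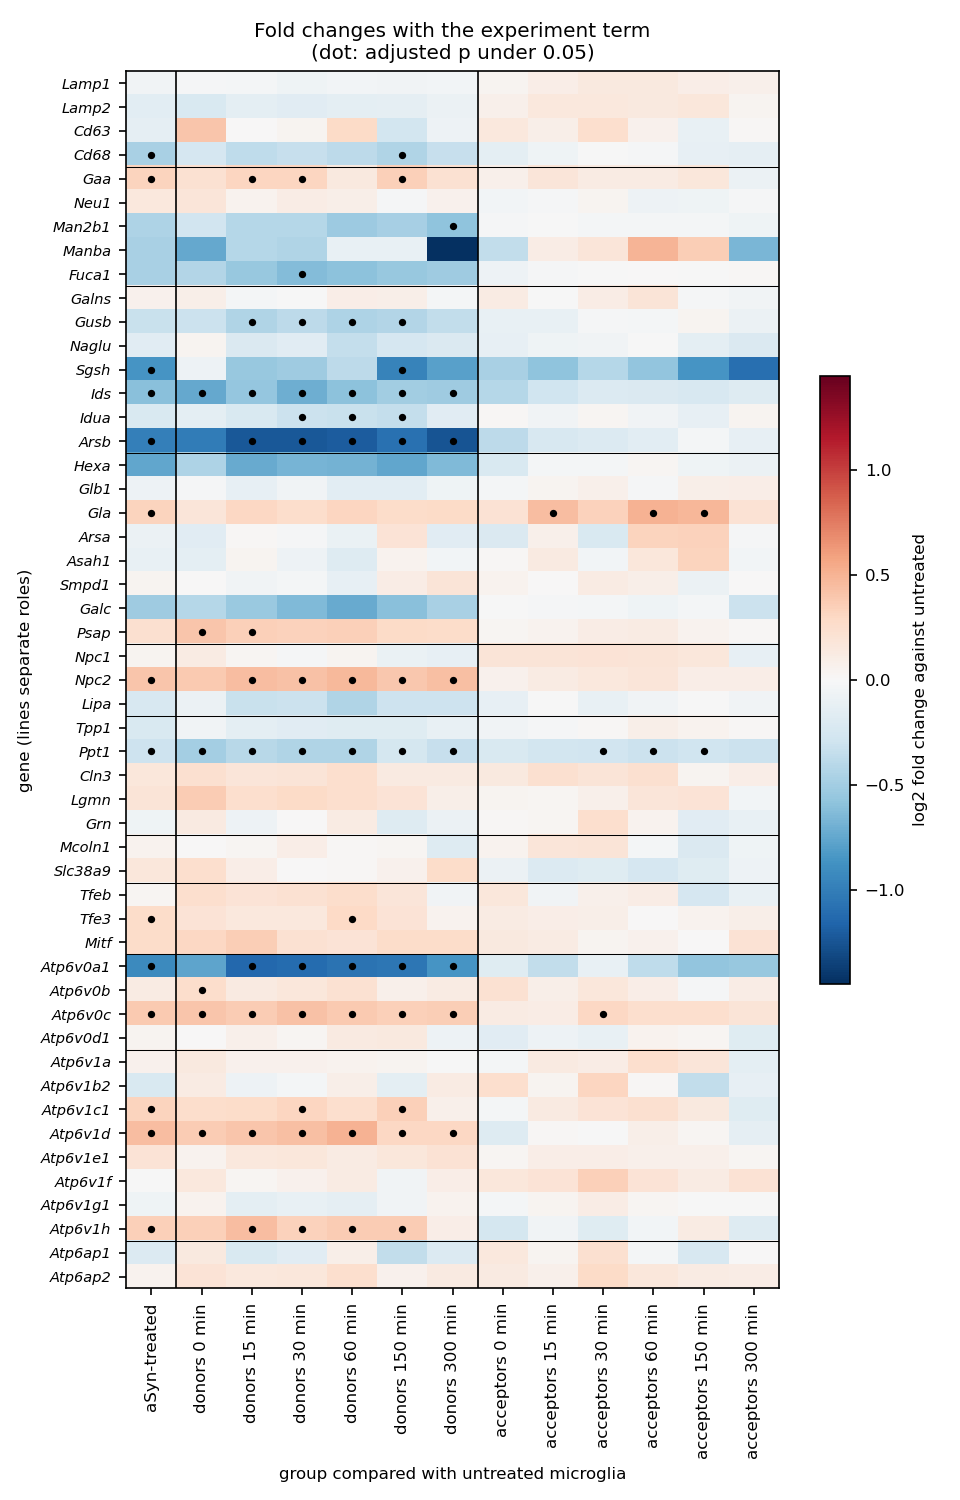
Log2 fold change against untreated microglia (color) of the 51 lysosomal genes (rows, by role) in aSyn-treated cells, donors at 6 times and acceptors at 6 times (columns), from the edgeR fit with the experiment as a block. Dots mark adjusted p under 0.05 and recur for Atp6v0c, Atp6v1d, Ids and Ppt1 in all donor columns, whereas acceptor columns hold 7 dots. In acceptors too, Ids and Ppt1 were below 0 and Atp6v0c above 0 at all 6 times. All columns share the untreated units.

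No member separated donors from aSyn-treated cells past the threshold. In donors against aSyn-treated cells, edgeR called no member at any of the 6 times in either fit. Unadjusted p-values under 0.05 were found for at most 2 members at a time without the block and at most 4 with it. Across all genes, 4 were called without the block and 40 with it, all at 300 min. The F test over the 6 times called no member in donors or in acceptors in either fit. Few genes of any kind were called. Of all 13169 genes, 8 were called in donors (0.0607%) and 1 in acceptors (0.00759%) without the block. With it, 76 (0.577%) and 18 (0.137%) were called. Among members, unadjusted p-values under 0.05 numbered 1 in donors and 0 in acceptors without the block, and 2 and 4 with it. The donor-to-acceptor difference was also tested for a change over time, which gave no call among members, with 0 members at an unadjusted p under 0.05 in either fit. Of all 13169 genes, that test called 0 without the block and 6 with it.

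Acceptor cells were given no aSyn themselves and were compared with the same untreated units. Without the experiment term no member was called at any time, with 1 to 3 members at an unadjusted p under 0.05. With the block, 0 members were called at 0 min (0.995% of all genes), 1 at 15 min (2.25%), 2 at 30 min (3.6%), 2 at 60 min (4%), 2 at 150 min (4.78%) and 0 at 300 min (0.623%). Gla rose at 15, 60 and 150 min, by 0.45, 0.50 and 0.48 on the log2 scale (adjusted p = 0.0280, 0.00981 and 0.0110), from 82.5 ± 10.6 CPM (SD, n = 4) in untreated cells to 116 ± 15.0 CPM (SD, n = 4) at 150 min. Ppt1 fell at 30, 60 and 150 min, by 0.28, 0.32 and 0.29 (adjusted p = 0.0463, 0.0195 and 0.0332). Atp6v0c rose at 30 min by 0.30 (adjusted p = 0.0294). At all 6 times the blocked log2 fold changes in acceptors were negative for Ppt1 (-0.32 to -0.22) and Ids (-0.41 to -0.19). Those of Atp6v0c were positive at all 6 times (0.10 to 0.30), and those of Atp6v1d at 3 of 6 (-0.18 to 0.08). At 150 min the Gla ranges were 103 to 136 CPM in acceptors, 86.2 to 115 CPM in donors and 71.05 to 95.1 CPM in untreated cells, and the difference between donors and acceptors was not called. Of these 7 acceptor calls, none remained when experiment 1, 3 or 4 was left out, and 4 remained without experiment 2 (Gla at 3 times and Atp6v0c).

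Donors and acceptors sorted from co-culture shared time and sorting and differed in aSyn exposure and in dye. For the groups labelled 0 min, compared in the same way, co-culture and sorting are not stated. Without the block no member was called, with 2 to 5 at an unadjusted p under 0.05. With the block, 2 members were called at 0 min (4.28% of all genes), 4 at 15 min (9.57%), 6 at 30 min (10.8%), 3 at 60 min (6.7%), 2 at 150 min (5.19%) and 1 at 300 min (1.38%). Atp6v1d was higher in donors at 0, 15, 30, 60 and 300 min, with log2 differences of 0.55, 0.38, 0.43, 0.43 and 0.42 (adjusted p from 0.00166 to 0.0232), and at 150 min the adjusted p was 0.0795. Atp6v1h was higher in donors at 0, 15, 30 and 60 min, by 0.60, 0.50, 0.51 and 0.41. Lamp2, which is needed for fusion with autophagosomes and for chaperone-mediated autophagy, was lower in donors at 15, 30, 60 and 150 min, with log2 differences of -0.29, -0.32, -0.29 and -0.30 (adjusted p from 0.00861 to 0.0392). Atp6v1d and Atp6v1h at 30 min were called in all 4 fits that left out an experiment, whereas Lamp2 was called in 2 of these fits at 30 min and in 0 at the other times.

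Lamp2 was not called against untreated cells at any time. At 30 min it stood at 618, 699, 716 and 562 CPM in acceptors of experiments 1 to 4 and at 536, 544, 522 and 478 CPM in donors, without overlap, whereas untreated units spanned 502 to 773 CPM. Single calls were Atp6v0c at 15 min (higher), Atp6v0a1, Ids and Idua at 30 min (lower) and Gusb at 150 min (lower). Ppt1 was not called between donors and acceptors at any time, with log2 differences from -0.27 to 0.03. Without experiment 4, Ids at 30 min went from -0.51 to -0.33 and Gusb at 150 min from -0.46 to -0.27, neither then called. Over the 21 same-numbered pairs of donors and acceptors from all times, Atp6v1d and Atp6v1h were higher in the donor in 21 and Lamp2 and Fuca1 lower in 21. These are 4 of 51 members (7.84%), against 4.65% of all genes with 1 direction in every pair, and the pairs come from only 4 experiments.

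Each experiment was also read by itself, setting the range of the cultures given aSyn (aSyn-treated and donors) beside the range of those not given it (untreated and acceptors). The ranges did not overlap for 8 members in experiment 1 (6.54% of all genes), 12 in experiment 2 (8.05%), 5 in experiment 3 (8.54%) and 25 in experiment 4 (26.6%). Units with the same number deviate together, and the labels do not say what they share, so these are descriptions of 12 to 14 units each. Experiment 4 gave 19 members lower and 6 higher, experiment 2 gave 8 lower and 4 higher, experiment 3 gave 4 lower and 1 higher, and experiment 1 gave 1 lower and 7 higher. Which members separated varied with the experiment. None of the 51 was higher in 1 experiment and lower in another by this measure.

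Atp6v1d was apart and higher in experiments 1, 3 and 4. In experiment 1 it spanned 206 to 250.6 CPM in cultures given aSyn and 160.1 to 189 CPM in the others, and in experiment 4 it spanned 273 to 341 CPM and 193 to 262.001 CPM. Atp6v0c was apart and higher in experiments 1, 2 and 4. In experiment 3 a single acceptor unit, that of 30 min at 1864 CPM, exceeded the range of 1675 to 1832 CPM in the cultures given aSyn. Arsb was apart and lower in experiments 1, 2 and 4, and Hexa in experiments 2, 3 and 4. Slc38a9, which senses lysosomal arginine for mTORC1, and Mitf were apart and higher in experiments 1 and 2 and overlapped in 3 and 4. Neither was called in any contrast with all experiments fitted.

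Experiment 4 held the largest falls. Hexa spanned 140.1 to 169 CPM in its 6 cultures given aSyn and 534 to 629 CPM in the other 6, whereas the ranges were 719 to 845 CPM and 763 to 859 CPM in experiment 1. Lipa spanned 471 to 533 CPM and 1131 to 1471 CPM in experiment 4 and overlapped in the other 3 experiments. Fuca1, the fucosidase, spanned 75.9 to 91.3 CPM and 208 to 233.9 CPM, Cd68 498 to 599 CPM and 877 to 1001 CPM, and Atp6v0a1 58.8 to 77.8 CPM and 144 to 276 CPM. Acceptors of experiment 4 did not share these low values. In aSyn-treated against untreated cells, the median log2 difference of the 23 hydrolase members was 0.02, -0.18, -0.01 and -0.53 in experiments 1 to 4, with 11, 17, 13 and 19 of them lower, and that of the 12 V-ATPase subunits was -0.05, -0.05, 0.32 and 0.16. The medians over all genes tested ran from -0.07 in experiment 4 to 0.00 in experiment 1. The summed microglial markers in experiment 4 were 4302 CPM in the untreated unit and 2194 CPM in the aSyn-treated unit. Their part in the hydrolase falls was not tested.

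**Figure D4:**
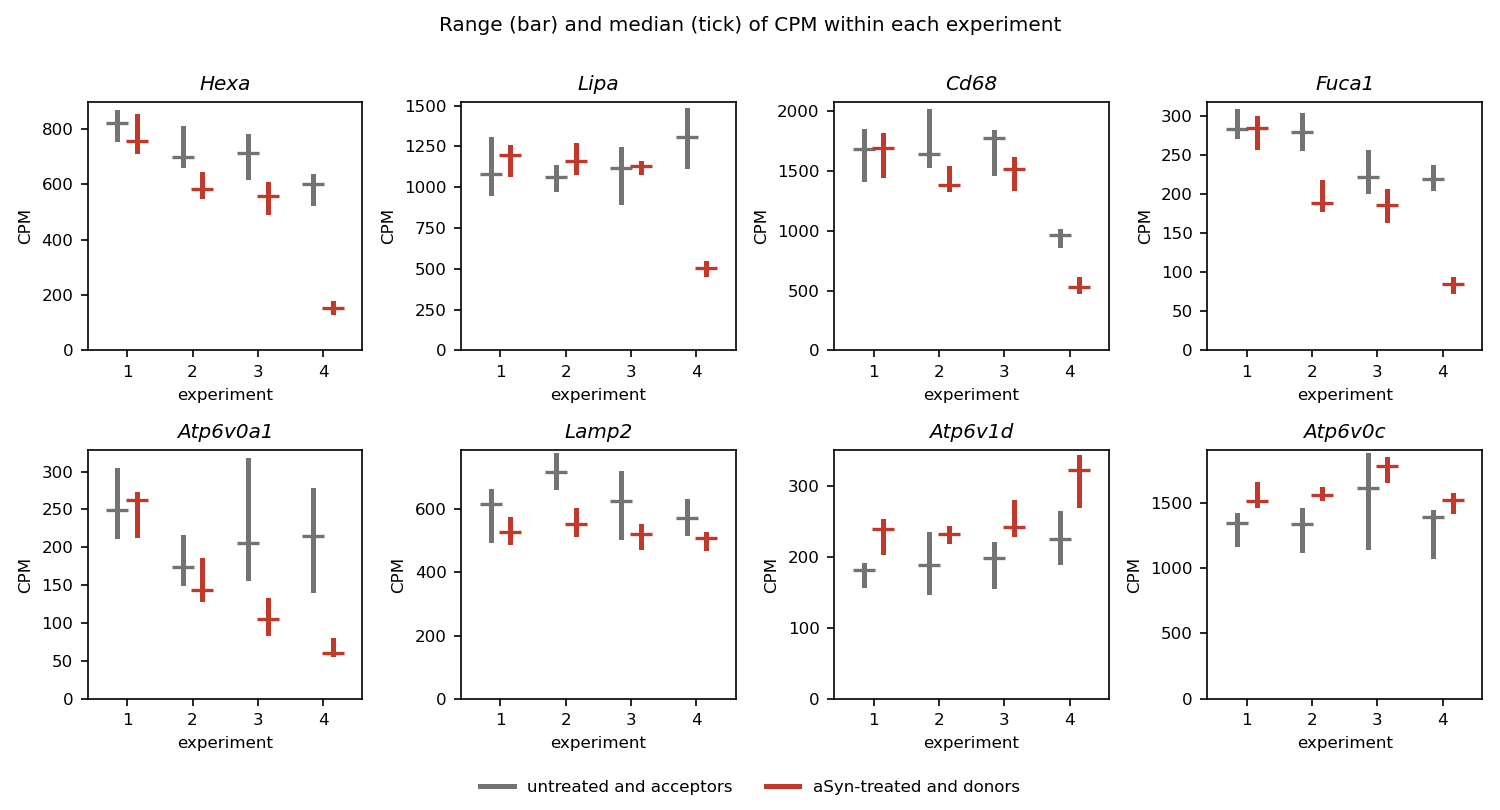
Range (vertical bar) and median (tick) of CPM (y axis) in each experiment (x axis) for cultures given aSyn, in red, and cultures not given it, in grey, for 8 lysosomal genes. The red and grey bars of Hexa, Lipa, Cd68, Fuca1 and Atp6v0a1 lie far apart in experiment 4, and those of Lipa overlap in experiments 1 to 3, while Atp6v1d and Atp6v0c are higher in red in all 4 by their medians.

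The share of variance in log2 CPM taken by experiment and by group was computed for each gene over the 52 units, with experiment entered before group. For members the median share was 52.6% for experiment, 18.6% for group and 24.9% for the remainder, and for all genes tested 33.9%, 23.7% and 36.2%. Experiment took more than group in 42 of 51 members (82.4%) and in 59.0% of all genes. Group took the most in Atp6v1d (59.6%), Lamp2 (55.4%), Atp6v0c (49.2%) and Ids (47.1%). At the other end, experiment took 86.4% in Galns, 85.1% in Grn and 83.5% in Glb1, and group took 2.87%, 3.99% and 3.73%.

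**Figure D5:**
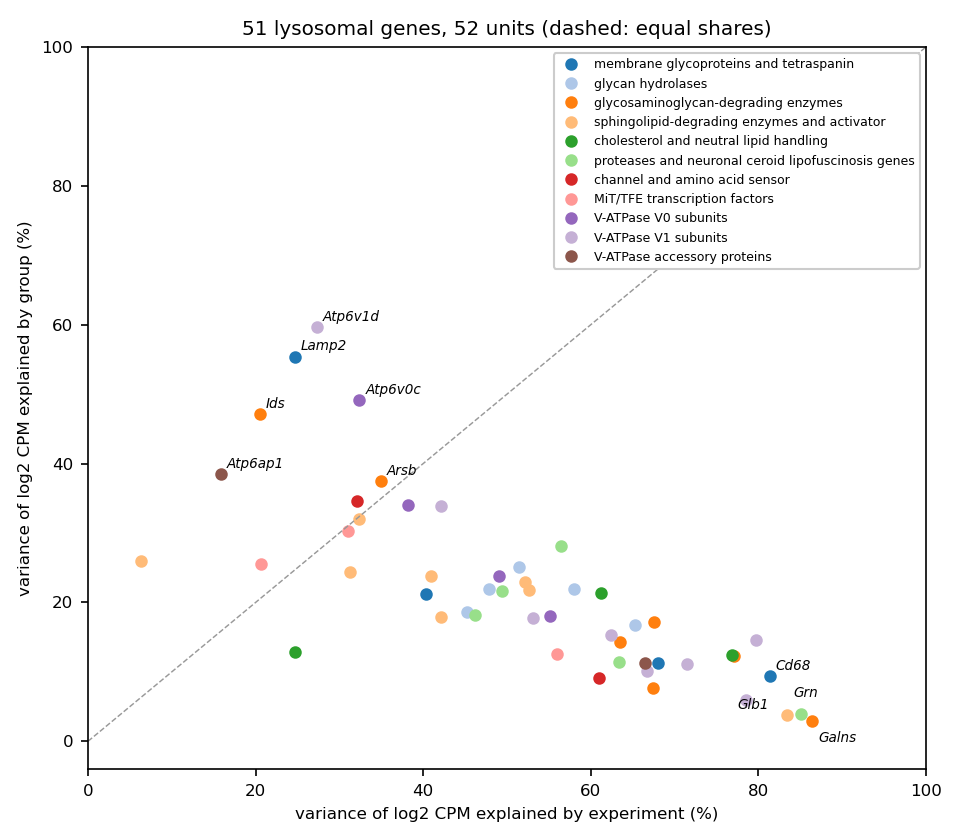
Share of the variance in log2 CPM explained by group (y axis, %) against that explained by experiment (x axis, %) for each of the 51 lysosomal genes, colored by role. Atp6v1d, Lamp2, Atp6v0c and Ids have the highest group shares, and 42 of 51 genes lie below the dashed line of equal shares.

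Lysosomal genes outside the 51 were read from lists of the same pathway for aSyn-treated against untreated cells, with the experiment as a block, where 19.2% of all genes were called. Of 21 other hydrolases and cofactors tested, 5 rose and 2 fell, and 2 of these, Acp5 and Acp2, were also called without the block. Acp5, tartrate-resistant acid phosphatase, rose by 2.85 on the log2 scale (SE 0.39, adjusted p = 1.45e-06), with means of 0.707 ± 0.556 CPM in untreated and 5.17 ± 0.993 CPM in aSyn-treated cells (SD, n = 4 each). Acp2, lysosomal acid phosphatase, rose by 0.90 (SE 0.17). The phospholipase Pla2g15 fell with a log2 fold change of -0.88 (SE 0.21).

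Of 21 other lysosomal membrane proteins, 5 rose and 1 fell, beside the same 19.2% of all genes. Slc11a1, a metal transporter of phagosomes, rose by 0.90 (SE 0.12) and the proton-coupled amino acid transporter Slc36a1 by 0.70 (SE 0.18), whereas Pip4p1 fell with a log2 fold change of -0.23 (SE 0.08). Of 10 other V-ATPase genes, Tcirg1, the a3 isoform of the same V0 arm as Atp6v0a1, rose by 0.50 (SE 0.12, adjusted p = 0.00270, and 0.0274 without the block) and Atp6v0e by 0.32 (SE 0.07), and Atp6v0e2 and Vma21 fell, with log2 fold changes of -1.39 (SE 0.37) and -0.38 (SE 0.11). Tcirg1 went from 199 ± 54.3 CPM to 281 ± 28.0 CPM (SD, n = 4 each), opposite to Atp6v0a1. Of 17 regulators of the MiT/TFE factors and members of the Ragulator-Rag complex, which anchors mTORC1 to the lysosome, 2 rose and 3 fell.

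Tfec, a further MiT/TFE factor that is found in macrophages, rose by 1.42 on the log2 scale (SE 0.26, adjusted p = 1.70e-04, and 0.00477 without the block), with means of 8.72 ± 0.88 CPM in untreated and 23.3 ± 4.58 CPM in aSyn-treated cells (SD, n = 4 each). Its groups did not overlap, in contrast to those of Tfeb and Mitf. Lamtor3 rose by 0.43 (SE 0.10), and Ppp3ca, a catalytic subunit of calcineurin, Lamtor4 and Lamtor1 fell, with log2 fold changes of -0.65 (SE 0.14), -0.45 (SE 0.13) and -0.39 (SE 0.12). Of 14 genes for sorting enzymes to the lysosome, only Sort1 was called, at a log2 fold change of -1.34 (SE 0.49, adjusted p = 0.0498), with the opposite direction in experiment 2.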

How the data were processed

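Primary mouse microglia were profiled by 3′ mRNA sequencing in 54 libraries of 14 groups. The deposited table holds raw read counts per gene symbol, per the file headers. A deposited table of signal values, counts the authors divided by a size factor per library, was not used for any result. The submitters' processing notes name STAR, Partek, DESeq2 and mm10, and the annotation, strand setting and counting rule are not given in the sources used here. Total counts per unit set the depth, given with the results. Same-numbered untreated libraries differed less from each other than from other untreated libraries and were summed, which left 52 units.

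Counts were fitted in R 4.3.3 with edgeR 4.0.16 (TMM scaling, low counts removed by filterByExpr, minimum count 10, quasi-likelihood F test, group means of all 14 groups in 1 fit). P-values were adjusted by Benjamini-Hochberg over the 13169 genes tested, at a threshold of 0.05, for 25 pairwise comparisons, 2 tests over time and 1 interaction. CPM values of genes used the TMM-scaled library sizes, and log2 CPM a prior count of 2. The replicate number was added as a block in a second fit. It was taken to pair samples because same-numbered samples deviated together. Over 91 pairs the lowest correlation of their deviations from group means was 0.154, and the mean per comparison ran from 0.265 to 0.593. Mean values for different numbers ran from -0.184 to -0.087. Because deviations cancel within a group, these negative values largely follow from the positive ones and add no separate support. The scripts were tested on simulated data. Alternatives were DESeq2 1.42.0 (size factors and test), no filter, other sample sets and leaving out each experiment.

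Members are named by role, with values per unit for those called in aSyn-treated cells, for the MiT/TFE factors and for those called repeatedly in the other comparisons. Members, lists and tests were chosen with earlier results of these data known. Gene positions come from GENCODE M21 and promoter sequences from RefSeq. Of the members, 12 overlap other listed genes, 11 of them on the opposite strand, where reads cannot be assigned without strand. Results for some genes of the related lists are not reported here.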

Additional observations from a re-analysis of the deposited data

Results flagged for a closer look

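Outlying units were looked for in the untreated and aSyn-treated groups of 4 for 18 lysosomal genes, by the gap between the most extreme unit and its neighbor over the range of the group. The genes were the 14 members called in aSyn-treated cells with the block, Tfeb and Mitf, and Hexa and Lipa, added by name without a call. Of the 36 groups tested, 2 passed Dixon's critical value, which is near the 1 in 20 that chance gives. Lipa was chosen with earlier results of these data known, so its flag is no independent result. Cd68 stood at 517 CPM in the aSyn-treated unit of experiment 4, against 1383 to 1462 CPM in the other 3 units. Lipa stood at 529.7 CPM in the same unit, against 1149 to 1262 CPM in the others. Both belong to the experiment with the higher share of Rn45s and the lower summed microglial markers, and the part of these in the low values was not tested.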

How the results depend on the processing

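The counts of called members depended most on the replicate block. In aSyn-treated against untreated cells, the 0 calls became 14 with the replicate block, 2 with the DESeq2 test and 2 with same-numbered untreated libraries kept separate (Ids and Atp6v0c in both). They stayed at 0 when 1 experiment was left out without the block, and ran from 5 to 10 when it was left out with the block. Some of these were not called with all experiments: Atp6v1e1 without experiment 1, Neu1 without experiment 2, and Hexa, Psap and Mitf without experiment 4. Over the 6 times of donors against untreated cells, the 3 calls became 63 with the block, 0 when only the groups compared were fitted, 10 with the DESeq2 test and 10 with separate untreated libraries. They ran from 0 to 5 when an experiment was left out without the block, and from 26 to 55 with it. In acceptors against untreated cells the 0 calls became 7 with the block, stayed at 0 when an experiment was left out without it, and ran from 0 to 7 with it. In donors against acceptors they became 18 with the block, and leaving out an experiment gave 0 to 1 without it and 7 to 20 with it. Across all genes, aSyn-treated against untreated cells gave 329 calls, 2524 with the block, 603 with the DESeq2 test, 618 with separate untreated libraries, 37 when only the groups compared were fitted and 73 to 301 when an experiment was left out without the block. The log2 fold change of Tfeb, 0.05, became -0.031 with separate untreated libraries and -0.20 without experiment 1 in both fits, and ran from -0.20 to 0.25 when an experiment was left out. No other single value tested changed sign. With 4 experiments, 1 of which stood apart, leaving out a unit moved many calls across the threshold, and fewer units were then fitted.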
